A study of Mus musculus with 18 samples.

Results

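The endothelial and mural genes described here are 38 symbols of the deposited count table, which lists 46983. They were taken by symbol, without a filter on their values, from a list of marker genes chosen with earlier results of these data known. Of these, 25 mark endothelium, 8 mark pericytes and 5 mark smooth muscle. All 38 were present in the table, and each matched 1 gene of the GENCODE M21 annotation of the GRCm38 mouse genome. In that annotation Flt1 spans chr5:147561604-147726011, Kdr chr5:75932827-75978458 and Ptprb chr10:116275523-116389535, while Cdh5 spans chr8:104101625-104144511, Vtn chr11:78499091-78502324 and Acta2 chr19:34241090-34255590. Counts are per gene and do not separate exons or UTRs.

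RNA was sequenced from hearts of adult mice, operated on at 8 to 10 weeks of age and sampled 6 weeks after surgery. Surgery either tied off the left anterior descending artery, a coronary vessel, to cause a myocardial infarction, or was a sham operation. The mice were either controls, called wild type by the submitters, or Salv cKO, a conditional knockout of Salvador. The Sav1 gene encodes this scaffold protein of Hippo kinase signalling. RNA was either total RNA of the whole heart or the ribosome-bound RNA of cardiomyocytes, captured through a ribosomal tag by translating ribosome affinity purification (TRAP). The 18 libraries formed 6 groups of 3: total RNA of infarcted control and infarcted Salv cKO hearts, and TRAP RNA of infarcted control, infarcted Salv cKO, sham control and sham Salv cKO hearts. The labels name neither the promoter that drives the ribosome tag nor the Cre driver of the knockout, and do not say whether the control mice carry the tag, a Cre or floxed alleles. They do not say that the 3 libraries of a group are separate animals (the design text says only that sequencing was in triplicate), so p-values measure the spread between libraries.

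Library totals ran from 3240871 to 24135877 counts. The mitochondrial share of counts was 15.8% to 29.0% in total RNA libraries, against 0.202% to 0.532% after TRAP. Sham control library 2 and sham Salv cKO library 3 held Y chromosome counts (567 and 659) and every other library held at most 7, so sex differed within the sham groups. Summed over 12 cardiomyocyte markers, the level in CPM, counts relative to library size with TMM factors over all 18 libraries, was 32030 to 63875 in total RNA and higher in every TRAP library, 126081 to 194477. The 10 fibroblast markers summed to 1870 to 3788 CPM in total RNA and 942 to 2176 CPM in TRAP RNA, and the 10 leukocyte markers to 305 to 548 and 294 to 632 CPM. None of these markers was at 0 in any library. Sav1, the targeted gene, was at 12.1 to 19.5 CPM in the total RNA libraries labelled Salv cKO and 17.5 to 24.5 CPM in those labelled control. In TRAP RNA it was at 3.99 to 6.69 against 4.87 to 7.82 CPM after infarction and at 1.09 to 9.81 against 6.17 to 8.58 CPM after sham. The genotypes overlapped in all 3 settings, and the labels do not say which exons are deleted, so gene counts of Sav1 do not check the genotype labels and Salv cKO below means the libraries so labelled.

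Endothelial cells line every vessel of the heart, form the barrier between blood and muscle, and read signals such as vascular endothelial growth factor (VEGF), angiopoietins and apelin through surface receptors. Pericytes wrap the capillaries and depend on platelet-derived growth factor B from the endothelium, while smooth muscle surrounds the larger vessels and sets their tone. After an infarction the vessels of the surviving muscle and the scar are rebuilt. In bulk RNA, fewer cells of a type and less RNA per cell cannot be told apart.

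Endothelial and mural transcripts were measurable in both kinds of RNA. The 25 endothelial genes summed to 1448 ± 95.9 CPM in total RNA of infarcted control hearts and 1556 ± 16.4 CPM in that of infarcted Salv cKO hearts (SD, n = 3 libraries, as for all levels below). In TRAP RNA they summed to 1126 ± 215 CPM in infarcted control, 941 ± 148 CPM in infarcted Salv cKO, 1319 ± 92.4 CPM in sham control and 1332 ± 175 CPM in sham Salv cKO. The TRAP sums of infarcted hearts, 846 to 1290 CPM, all lay below the total RNA sums, 1340 to 1567 CPM. Fabp4, a fatty acid carrier of capillary endothelium and of adipocytes, and Flt1, the VEGF receptor 1, weighed on the TRAP sum more than on the total RNA sum. Fabp4 gave 30.7% of it in infarcted control TRAP RNA and 14.4% in infarcted control total RNA, and Flt1 17.1% and 4.4%. Without these 2 genes the sum in TRAP RNA was 0.499 times that in total RNA in control and 0.426 times in Salv cKO. With them the ratios were 0.778 and 0.605, but 0.505 and 0.457 by library totals and 0.386 and 0.337 by totals without mitochondrial genes. A further list of 28 endothelial genes summed the other way, to 3009 to 3615 CPM in TRAP and 1776 to 2258 CPM in total RNA of infarcted hearts. Its member Crip2 alone was at 2506 ± 242 CPM in infarcted control TRAP RNA and 426 ± 110 CPM in infarcted control total RNA.

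The 8 pericyte genes summed to 968 ± 174 CPM in total RNA and 299 ± 9.81 CPM in TRAP RNA of infarcted control hearts, and to 854 ± 177 and 275 ± 30.5 CPM in Salv cKO. In sham TRAP RNA the sums were 356 ± 35.9 CPM in control and 295 ± 11.6 CPM in Salv cKO. The pericyte sums of total RNA, 733 to 1104 CPM, lay above every TRAP sum, 242 to 390.5 CPM. Among the smooth muscle genes, Des supplied most of the counts. Des encodes desmin, an intermediate filament protein of all muscle, the cardiomyocyte included. It gave 55.1% of the sum of all 13 pericyte and smooth muscle genes in infarcted control total RNA and 88.0% in infarcted control TRAP RNA. Without Des, the other 4 smooth muscle genes summed to 146 ± 52.9 CPM in total RNA and 63.2 ± 9.54 CPM in TRAP RNA of infarcted control hearts.

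**Figure D1:**
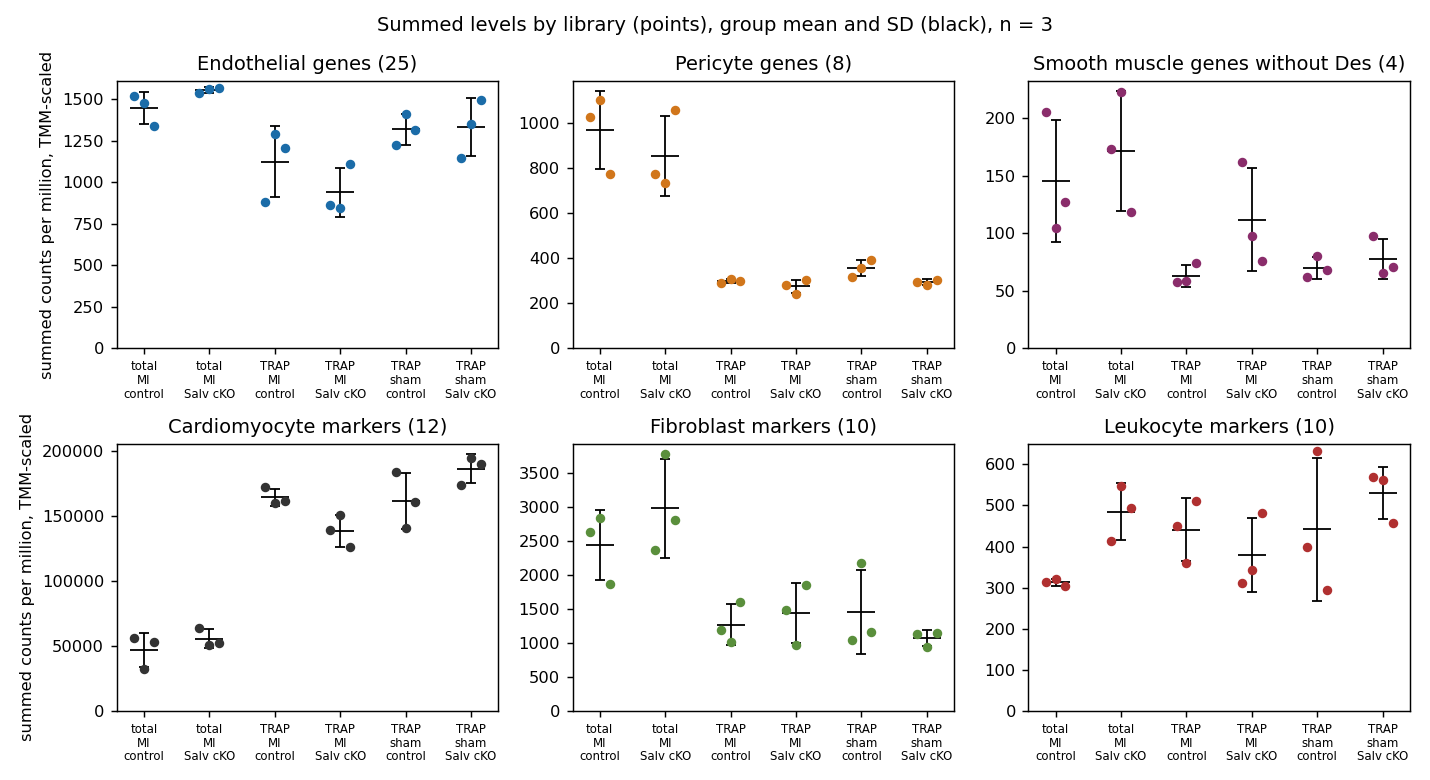
Summed TMM-scaled CPM of the endothelial, pericyte and smooth muscle genes (upper row, Des left out of the last) and of cardiomyocyte, fibroblast and leukocyte markers (lower row), on axes that start at 0; each point is a library and the black bars are the group mean and SD of 3 libraries. The pericyte sums of TRAP RNA (242 to 390.5 CPM) lie below those of total RNA (733 to 1104 CPM), while the cardiomyocyte sums of TRAP RNA (126081 to 194477 CPM) lie above those of total RNA (32030 to 63875 CPM).

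Per kilobase of exon, the highest members in infarcted control total RNA were Des (369 ± 81.1 CPM per kb), Rgs5 (124 ± 38.9), which encodes a regulator of G protein signalling abundant in pericytes, and Cav1 (69.4 ± 18.4), which encodes caveolin-1, the coat protein of caveolae. Acta2, the smooth muscle actin gene, stood at 50.7 ± 17.7 CPM per kb, within the spread of Cav1, and Fabp4 at 46.4 ± 10.3. In infarcted control TRAP RNA Des was again highest (716 ± 109 CPM per kb), followed by Fabp4 (77.1 ± 15.7) and by Cldn5 (49.7 ± 12.9), which encodes a tight junction protein of endothelium. Rgs5 (19.1 ± 3.49 CPM per kb), Acta2 (19.7 ± 2.28) and Egfl7 (20.1 ± 3.39), an endothelial secreted protein gene, did not differ from each other beyond their spread there. The lowest member in total RNA was Cnn1, the calponin gene of contractile smooth muscle, at 0.414 ± 0.252 CPM per kb. Genes are compared per kilobase only in this paragraph, and all other levels are CPM.

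Cnn1 and Nos3, the endothelial nitric oxide synthase gene, did not pass the low count filter of the TRAP fit, so 36 of 38 genes were tested there. Cnn1 had 1 to 20 counts and Nos3 0 to 25 counts in a TRAP library. Sox17 and Sox18, transcription factor genes of endothelium, passed the filter with few counts, 0 to 17 and 0 to 42, and both were at 0 in sham Salv cKO library 3. A count of 0 there allows up to 0.661 CPM of the library total, from a floor of 3 counts, which covers counting error only.

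The comparison of TRAP with total RNA in infarcted hearts asks which transcripts the purification kept or lost. Most of the 38 genes were lower in TRAP RNA. By edgeR's quasi-likelihood test with Benjamini-Hochberg adjustment over all 13267 genes tested, 24 of the 38 genes fell and 7 rose. These are 63.2% and 18.4% of the 38, while 39.9% of all genes tested fell and 34.4% rose (74.2% in either direction). The median log2 fold change was -0.83 over the 38 genes and -0.15 over all genes. It was -1.04 for the 25 endothelial genes, -0.96 for the 8 pericyte genes and -0.40 for the 5 smooth muscle genes. The 6 TRAP and 6 total RNA libraries did not overlap for 18 genes that were lower and 4 that were higher, against 29.3% and 23.9% of all genes. Further lists of the same cell types followed only in part. The median was -0.91 for 28 other endothelial genes, of which 60.7% fell and 14.3% rose. It was -0.17 for 13 other pericyte genes (46.2% fell, 15.4% rose) and 0.17 for 13 other smooth muscle genes tested (23.1% fell, 30.8% rose). The 12 cardiomyocyte markers had a median of 1.82 in the same fit, where 8 rose and 3 fell, among them Ttn (log2 -2.64). The 10 fibroblast markers had a median of -1.42 (1 rose, 7 fell) and the 10 leukocyte markers of 0.20 (3 rose, 3 fell). The part of these markers in the values of the 38 genes was not tested. Directions depend on the scaling. With library totals in place of TMM factors the median of all genes moved by -0.59 to -0.74, all genes split into 22.7% higher and 55.7% lower, and the 38 genes into 3 higher and 29 lower. Relative to the median of all genes, 28 of the 38 lay below and 10 above under both scalings.

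**Figure D2:**
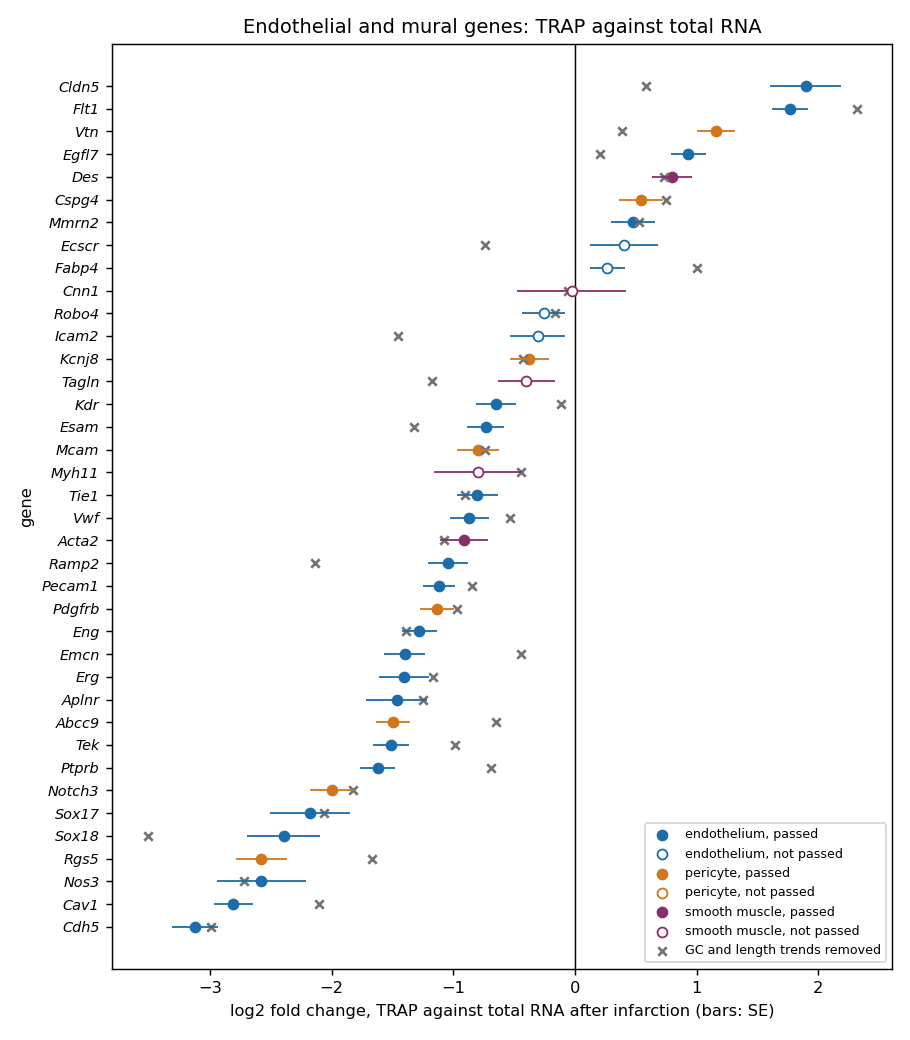
Log2 fold change of each of the 38 genes in TRAP against total RNA of infarcted hearts, over 6 libraries against 6, with its standard error (bars); filled points passed the edgeR test and open points did not, and crosses give the value after trends with GC content and transcript length were removed. Cdh5 is lowest at -3.12 and Cldn5 highest at 1.90, and 31 of 38 points are filled.

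The junction and caveolar genes of endothelium held the widest range. Cdh5 encodes VE-cadherin, the adhesion molecule of endothelial junctions. Its level was 87.8 to 184 CPM in total RNA (median 107) and 9.44 to 15.4 CPM in TRAP RNA (median 12.5), so every TRAP library lay below every total RNA library. The log2 fold change was -3.12 (SE 0.19, edgeR adjusted p = 2.58e-12), an 8.72-fold lower level. Cav1 went from 191 to 311 CPM in total RNA to 23.6 to 38.7 CPM in TRAP RNA, again without overlap (log2 -2.81, SE 0.16). Pecam1, an adhesion molecule of endothelium and platelets, fell by 1.12 on the log2 scale, Esam, a junctional adhesion molecule, by 0.73, Emcn, a sialomucin of veins and capillaries, by 1.40, and Eng, the TGF-beta coreceptor endoglin, by 1.28.

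Cldn5 moved the other way. Its level was 5.78 to 24.6 CPM in total RNA (median 17.3) and 35.1 to 91.2 CPM in TRAP RNA (median 55.8), without overlap (log2 1.90, SE 0.29, edgeR adjusted p = 5.26e-05). Control library 2 was the lowest of the 6 total RNA libraries. Egfl7 rose by 0.93 (SE 0.14), from a median of 35.1 to 66.3 CPM, with 1 TRAP library inside the range of total RNA, and by library totals its value of 0.34 did not pass. Mmrn2, a matrix protein of endothelium, rose by 0.48 (SE 0.18, edgeR adjusted p = 0.0241), but its libraries overlapped widely (22.1 to 31.6 CPM in total RNA, 24.3 to 55.1 in TRAP RNA), and its call was lost when 1 library was left out in 4 of 12 cases. These were control library 2 and Salv cKO library 1 of total RNA, and control library 3 and Salv cKO library 3 of TRAP RNA (log2 0.40, 0.42, 0.38 and 0.24). With library totals its sign turned, to -0.10.

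The VEGF receptors took different sides. Flt1 was at 71.9, 52.0 and 67.9 CPM in total RNA of control hearts and 57.9, 52.7 and 71.8 CPM in that of Salv cKO hearts. In TRAP RNA of infarcted hearts it was at 140.0, 211 and 229 CPM in control and 192, 188 and 240.4 CPM in Salv cKO. All 6 TRAP libraries were thus above all 6 total RNA libraries (log2 1.77, SE 0.15, edgeR adjusted p = 2.68e-10, a 3.40-fold higher level). Kdr, the VEGF receptor 2, stood at 71.4 to 88.4 CPM in total RNA and 30.8 to 73.9 CPM in TRAP RNA, where 1 Salv cKO library reached into the total RNA range. Its log2 fold change was -0.65 (SE 0.16, edgeR adjusted p = 0.00108), and -0.11 without GC and length trends, which did not pass.

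For Flt1 and Kdr, whose levels differed in direction between the same libraries, the 100 bases before the transcription start are shown (RefSeq, GRCm38.p6). Both lie on the minus strand of chromosome 5 and read 5′ to 3′ along the gene. Flt1 is chr5:147726012-147726111 and Kdr is chr5:75978456-75978555. Capitals mark the letters GGAAG, the core bound by ETS factors, searched on both strands.
Flt1: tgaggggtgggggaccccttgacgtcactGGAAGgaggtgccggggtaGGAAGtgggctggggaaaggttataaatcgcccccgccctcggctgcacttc
Kdr: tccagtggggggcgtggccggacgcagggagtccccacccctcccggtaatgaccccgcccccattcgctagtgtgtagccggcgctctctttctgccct
The Flt1 stretch holds GGAAG at bases -71 to -67 and -52 to -48 before the start, and the Kdr stretch holds none. These letters are common: 64.1% of 32851 promoters of the same table hold them within 250 bases before the start, and so do 8 of the 11 endothelial genes with an entry, Kdr among them. The longer ETS site ACAGGAAG, present in 2.90% of promoters, was in those of Egfl7 and Emcn. A match describes the letters and shows no binding.

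The angiopoietin receptors and their phosphatase fell together. Tek, the angiopoietin receptor Tie2, was at 43.4 to 61.7 CPM in total RNA and 14.95 to 19.7 CPM in TRAP RNA (log2 -1.51, SE 0.15). Tie1, its partner, had a log2 fold change of -0.80 (SE 0.16), and Ptprb, the endothelial phosphatase that acts on Tek, of -1.62 (SE 0.14). In all 3 genes every TRAP library lay below every total RNA library. Aplnr, the apelin receptor, fell by 1.47, Robo4, an endothelial guidance receptor, had a value of -0.26 that did not pass, and Ramp2, which gives the calcitonin receptor-like receptor its adrenomedullin affinity, fell by 1.04. Exons of Ramp2 overlap Vps25 on the same strand, so their reads may be shared.

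The endothelial transcription factor genes Sox18, Sox17 and Erg were also lower in TRAP RNA, as was Nos3. Sox18 went from 11.1 to 25.5 CPM in total RNA to 1.31 to 7.34 CPM in TRAP RNA (log2 -2.39, SE 0.30). Sox17 had a log2 fold change of -2.18 (SE 0.33) and Erg, an ETS factor, of -1.40 (SE 0.21), and Nos3 of -2.58 (SE 0.36). In none of these 4 genes did the 2 kinds of library overlap. Vwf, the von Willebrand factor gene, fell by 0.87 with overlapping libraries. Icam2, an endothelial adhesion molecule (log2 -0.31), Fabp4 (0.27, but -0.31 and past the test with library totals) and Ecscr, an endothelial surface protein (0.41, but -0.16 with library totals), did not pass.

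Among the pericyte genes 6 fell and 2 rose. Rgs5 was at 583, 732 and 379 CPM in total RNA of control and 392, 380.1 and 653 CPM in that of Salv cKO hearts. In TRAP RNA of infarcted hearts it was at 77.0, 105 and 78.5 CPM in control and 88.4, 49.4 and 95.5 CPM in Salv cKO, below all of these (log2 -2.58, SE 0.21, edgeR adjusted p = 9.50e-10). Notch3, a receptor of mural cells, fell by 1.996, Abcc9 and Kcnj8, the sulfonylurea receptor and pore of a potassium channel, by 1.49 and 0.38, Pdgfrb, the receptor for platelet-derived growth factor B, by 1.13, and Mcam, an adhesion molecule, by 0.79. Abcc9 and Kcnj8 are neighbours on chromosome 6, and Abcc9 is also known from cardiomyocytes. The call of Kcnj8 was lost in 6 of 12 fits that left out 1 library, with values of -0.38 to -0.30: control library 1 and Salv cKO library 3 of total RNA, and control libraries 1 and 2 and Salv cKO libraries 1 and 2 of TRAP RNA. Vtn, which encodes vitronectin, rose from 17.4 to 20.1 CPM in total RNA to 26.6 to 56.1 CPM in TRAP RNA, without overlap (log2 1.16, SE 0.16). Cspg4, the NG2 proteoglycan gene, rose by 0.54 (SE 0.18) with overlapping libraries, and turned to -0.04 with library totals.

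Of the smooth muscle genes Acta2 fell by 0.91 (SE 0.20) and Des rose by 0.80 (SE 0.16), where library totals gave 0.21, which did not pass. Neither gene passed in Salv cKO hearts fitted alone. Des was at 1034 to 1792 CPM in total RNA and 1837 to 3081 CPM in TRAP RNA. Its groups did not overlap, and cardiomyocytes also express it. Myh11, the smooth muscle myosin gene (log2 -0.80, SE 0.36, edgeR adjusted p = 0.0624), Tagln, the transgelin gene (-0.40), and Cnn1 (-0.03) did not pass.

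GC content and length went with the fold changes over all genes. Spearman's rho across the 12815 genes with a sequence was 0.34 with GC content and -0.35 with transcript length, and across the 38 genes 0.24 and -0.25, as a description of genes that share libraries. With smooth trends removed, Cldn5 (log2 0.58) and Egfl7 (0.20) no longer passed. Icam2 (-1.45), Tagln (-1.18) and Fabp4 (1.004) then did, and Ecscr changed sign to -0.74. Of the 27 genes whose exons overlap no other annotated gene, 17 fell and 5 rose. The strand setting of the counting is not given in the sources used here, so reads of overlapping genes such as Eng and Fpgs, Egfl7 and Agpat2, Nos3 and Atg9b, and Tagln and Pcsk7 may be shared.

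Genotype was compared first in total RNA of infarcted hearts. By edgeR 0 of the 38 genes passed, as against 0.255% of 12945 genes tested. At an unadjusted p under 0.05 there were 2, against 1789 of all 12945 genes. DESeq2 called 0, against 105 higher and 55 lower among all genes. The value was positive in 28 of 38 genes, among them 21 of 25 endothelial genes (median log2 0.18, against 0.02 for all genes), and in 51.9% of all genes. GC content and length also went with this genotype value. Spearman's rho across 12516 genes with a sequence was 0.37 with GC content and -0.41 with transcript length. Across the 38 genes it was 0.11 and -0.53, as a description of genes that share libraries. In Icam2 the levels were 12.6, 11.7 and 11.3 CPM in control and 25.2, 16.7 and 13.1 CPM in Salv cKO. The groups did not overlap, yet the log2 fold change of 0.66 (SE 0.23) had an edgeR adjusted p of 0.271. Icam2 and Esam were the only 2 of 38 genes whose libraries did not overlap (5.26%, against 17.96% of all genes). Other markers were mostly positive in the same comparison, and none passed by edgeR: 10 of 10 leukocyte markers (median 0.66), 9 of 10 fibroblast markers (0.29) and 9 of 12 cardiomyocyte markers (0.39), each median above that of the endothelial genes. The leukocyte sums were 305 to 321 CPM in control and 412 to 548 CPM in Salv cKO, and the part of these markers in the endothelial values was not tested.

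In TRAP RNA of infarcted hearts edgeR passed 0 of the 36 genes tested between Salv cKO and control, against 0.334% of 11393 genes. At an unadjusted p under 0.05 there were 5, against 838 of all 11393 genes. DESeq2 called 1, Acta2, against 32 higher and 42 lower among all genes. The libraries did not overlap for 6 of 36 genes (16.7%, against 14.8% of all genes). Acta2 stood at 38.6, 42.6 and 48.6 CPM in infarcted control and 120.9, 78.1 and 61.5 CPM in infarcted Salv cKO. All 3 Salv cKO libraries were above all 3 control libraries, with library 1 highest (log2 1.002, SE 0.24, edgeR adjusted p = 0.0859). In the sham groups Acta2 was at 50.4, 63.1 and 58.3 CPM in control and 86.4, 56.2 and 53.9 CPM in Salv cKO, which overlapped (log2 0.25, SE 0.24). Without Salv cKO library 3 the value for infarcted hearts was 1.19 and passed, and without Salv cKO library 1 it was 0.69 and did not. Of the 3 infarcted Salv cKO libraries, library 1 was also the highest for Myh11, at 22.3 CPM against 11.2 and 2.58 CPM, and for Tagln, at 16.3 CPM against 6.69 and 10.8 CPM.

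Acta2 expression is known to be driven by serum response factor, which binds CArG boxes (CC, 6 bases of A or T, GG). The 100 bases before the RefSeq start of Acta2, chr19:34255374-34255473 of GRCm38.p6 on the minus strand, are shown 5′ to 3′ with CArG boxes that have 1 G or C in their core, and a GGAAG whose first base is the last of the second box, in capitals.
Acta2: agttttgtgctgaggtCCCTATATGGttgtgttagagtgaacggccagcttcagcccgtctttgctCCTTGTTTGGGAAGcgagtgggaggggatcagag
These boxes lie at bases -84 to -75 and -34 to -25. The strict box was in 1.47% of all promoters and in none of the 21 members with an entry. The looser form, which like GGAAG was added to the search after the letters had been seen, was in 7.24% of promoters, and among the members in those of Acta2, Egfl7, Eng and Kdr.

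Other genes that did not overlap between genotypes after infarction were all lower in Salv cKO and did not pass. Fabp4 was at 268, 406 and 364 CPM in control and 209, 189.9 and 261 CPM in Salv cKO, with every Salv cKO library below every control library (log2 -0.66, SE 0.20, edgeR adjusted p = 0.292). Cspg4 was at 29.1, 24.5 and 24.2 CPM against 13.03, 17.5 and 15.01 CPM (log2 -0.78, SE 0.23). Ramp2 (-0.74), Cldn5 (-0.56) and Pecam1 (-0.35) were the other three. The median was -0.18 for the endothelial genes and 0.00 for all genes tested. Adipocyte markers, which bear on Fabp4, were low: the 6 of them summed to 3.32 to 6.29 CPM in infarcted control and 2.71 to 10.7 CPM in infarcted Salv cKO, with Lep at 0 in every TRAP library.

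The difference of the genotype effect between TRAP and total RNA was tested as an interaction. By edgeR 0 of the 38 genes passed, against 0.43% of all genes. At an unadjusted p under 0.05 there were 4, against 1964 of all 13267 genes. DESeq2 called 1, Fabp4, against 86 higher and 176 lower among all genes. Fabp4 was at 256, 163 and 206 CPM in total RNA of control and 357, 250.5 and 251 CPM in that of Salv cKO, with 1 control library inside the Salv cKO range. The genotype value was thus positive in total RNA (log2 0.50) and negative in TRAP RNA (-0.66), and neither passed (interaction log2 -1.18, SE 0.29, edgeR adjusted p = 0.0753). In the same interaction the leukocyte markers were negative in 10 of 10 (median -0.99, 1 passing) and the cardiomyocyte markers in 10 of 12 (median -0.64, 0 passing by edgeR, 1 by DESeq2, and 5 before adjustment at p under 0.05); their part in the Fabp4 value was not tested.

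After sham surgery edgeR passed 0 of 36 genes between genotypes in TRAP RNA, against 2.55% of all genes. At an unadjusted p under 0.05 there were 5, against 2110 of all 11393 genes. DESeq2 called 1, Cspg4, against 341 higher and 281 lower among all genes. The libraries did not overlap for 7 genes (19.4%, against 20.9% of all genes). Cspg4 was at 17.2, 21.9 and 19.6 CPM in sham control and 9.60, 9.79 and 11.8 CPM in sham Salv cKO, every Salv cKO library below every control library (log2 -0.84, SE 0.25, edgeR adjusted p = 0.0666). With all libraries thinned to equal depth its value was -0.32. Robo4 was at 8.94, 14.9 and 9.20 CPM in sham control and 5.17, 7.61 and 3.46 CPM in sham Salv cKO (log2 -0.97, SE 0.37, edgeR adjusted p = 0.161), also without overlap. Flt1 was the only one of the 7 that was higher in Salv cKO (log2 0.44, SE 0.20, edgeR adjusted p = 0.228).

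**Figure D3:**
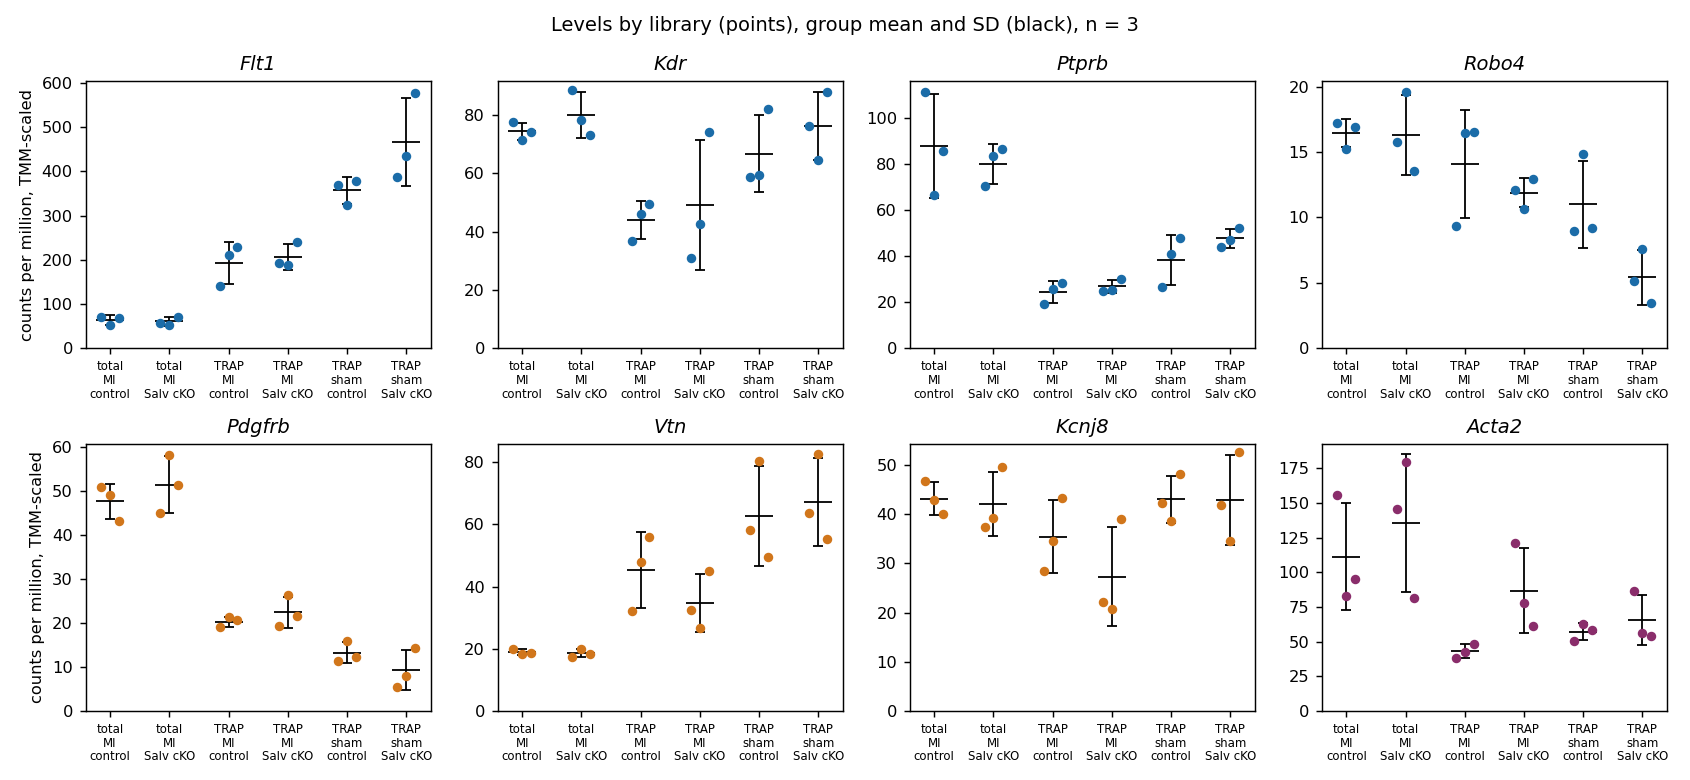
TMM-scaled CPM of 8 genes in each library (points, 3 per group) with the group mean and SD (black), on axes that start at 0; blue marks endothelial, orange pericyte and purple smooth muscle genes. Flt1 is lowest in total RNA (52.0 to 71.9 CPM) and highest in sham TRAP RNA (323 to 578 CPM), and Acta2 in TRAP RNA of infarcted hearts is higher in the 3 Salv cKO libraries (61.5 to 120.9 CPM) than in the 3 control libraries (38.6 to 48.6 CPM).

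Infarcted and sham hearts were compared within each genotype in TRAP RNA. The genotype and infarction comparisons draw on the same 4 groups and so share libraries. Control and Salv cKO infarction effects share none. In control 1 of 36 genes passed, Flt1, against 1.08% of all genes. In Salv cKO 6 of 36 genes passed (16.7%), against 18.2% of all genes, so the share was near the background. Of these 4 fell (11.1%, background 10.6%) and 2 rose (5.56%, background 7.56%). The libraries did not overlap for 11 of 36 genes in control (30.6%, against 18.4% of all genes) and 14 of 36 in Salv cKO (38.9%, against 36.1%). The direction was the same in both genotypes for 25 of 36 genes (69.4%) and for 66.5% of all genes.

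Flt1 fell in both genotypes. In control it was at 369.9, 323 and 379 CPM after sham and 140.0, 211 and 229 CPM after infarction. In Salv cKO it was at 386, 435 and 578 CPM after sham and 192, 188 and 240.4 CPM after infarction. Every infarcted library was below every sham library of its genotype, and the sham libraries all exceeded the 6 infarcted ones. The log2 fold change was -0.89 in control (SE 0.20, edgeR adjusted p = 0.0391) and -1.24 in Salv cKO (SE 0.20, edgeR adjusted p = 3.14e-04). The difference between genotypes did not pass (interaction log2 -0.35, SE 0.28, edgeR adjusted p = 0.619). The call in Salv cKO held when each of the 6 libraries was left out in turn, with values of -1.37 to -1.06. In control it was lost without infarcted library 1 (log2 -0.69), infarcted library 2 (-0.95), sham library 1 (-0.84) or sham library 3 (-0.86), the highest adjusted p being 0.267. It was also lost at equal depth (-0.97) and without GC and length trends (-0.78). At equal depth, without infarcted library 1 and without sham library 3, 0 of all genes tested passed.

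The sign of other endothelial receptors was not always the same in both genotypes. Tie1 had a value of 0.39 (SE 0.26) in control and -0.30 (SE 0.26) in Salv cKO. Aplnr had -0.0045 (SE 0.37), whose sign is not settled, and 0.79 (SE 0.38). None of these passed, and neither did the interactions with genotype (log2 -0.69, SE 0.37 for Tie1 and 0.80, SE 0.52 for Aplnr). Kdr had a log2 fold change of -0.60 in control (SE 0.25, edgeR adjusted p = 0.263) and -0.71 in Salv cKO (SE 0.25, edgeR adjusted p = 0.0596), and neither passed. Tek had -0.62 and -0.66, which did not pass either. Ptprb fell in Salv cKO from 43.9, 46.8 and 52.2 CPM after sham to 25.03, 25.3 and 30.3 CPM after infarction, with no overlap (log2 -0.90, SE 0.22, edgeR adjusted p = 0.00856). In control it was at 26.4, 40.9 and 47.8 CPM after sham and 19.4, 25.7 and 28.3 CPM after infarction, and the groups overlapped (log2 -0.66, SE 0.22, edgeR adjusted p = 0.146). The Ptprb call in Salv cKO also held in each of the 6 fits that left out 1 library. Robo4 rose in Salv cKO from 5.17, 7.61 and 3.46 CPM to 12.1, 10.7 and 12.9 CPM (log2 1.08, SE 0.37, edgeR adjusted p = 0.0450). Its call was lost in 5 of 6 fits without 1 library, all but the one without sham library 2, with values of 0.82 to 1.16. The Robo4 call was also lost at equal depth and without the libraries with Y chromosome counts (0.82).

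Pdgfrb rose in Salv cKO. Its levels were 5.54, 7.98 and 14.4 CPM after sham and 19.4, 26.4 and 21.6 CPM after infarction, and the lowest infarcted library was above the highest sham library (log2 1.18, SE 0.30, edgeR adjusted p = 0.00949). Over the 6 fits that left out 1 library the value ran from 0.92, without sham library 1, to 1.65, without sham library 3, and the call held in each. In control Pdgfrb was at 11.4, 15.97 and 12.4 CPM after sham and 19.0, 21.3 and 20.6 CPM after infarction, which also did not overlap, but the value of 0.61 (SE 0.28) did not pass (edgeR adjusted p = 0.329). Fibroblasts also express Pdgfrb. The fibroblast markers were positive in 9 of 10 genes in this Salv cKO comparison, with 1 passing, and their sums were 942 to 1142 CPM after sham and 979 to 1855 CPM after infarction; their part in the Pdgfrb value was not tested.

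Vtn and Kcnj8 fell in Salv cKO. Vtn was at 63.5, 82.7 and 55.4 CPM after sham and 32.6, 26.6 and 45.0 CPM after infarction, without overlap (log2 -1.02, SE 0.27, edgeR adjusted p = 0.0113). Without infarcted library 1 (log2 -0.97), infarcted library 2 (-0.86) or sham library 2 (-0.84) Vtn did not pass. Kcnj8 was at 41.7, 34.4 and 52.5 CPM after sham and 22.2, 20.8 and 38.9 CPM after infarction, where library 3 reached into the sham range (log2 -0.73, SE 0.25, edgeR adjusted p = 0.0480). It passed in 2 of 6 fits without 1 library, those without infarcted library 3 and without sham library 2, and not without the libraries with Y chromosome counts (-0.56). Kcnj8 did not pass with no filter, at equal depth or with the 2 groups alone either. In control neither passed, with values of -0.47 for Vtn and -0.28 for Kcnj8. Abcc9, the partner of Kcnj8, had 0.15 in Salv cKO and -0.44 in control. Cardiomyocyte markers also moved in Salv cKO, where 5 of 12 fell and 1 rose; their part in the values of Vtn, Kcnj8 and Flt1, all of which were measured in RNA rich in cardiomyocyte transcripts, was not tested.

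**Figure D4:**
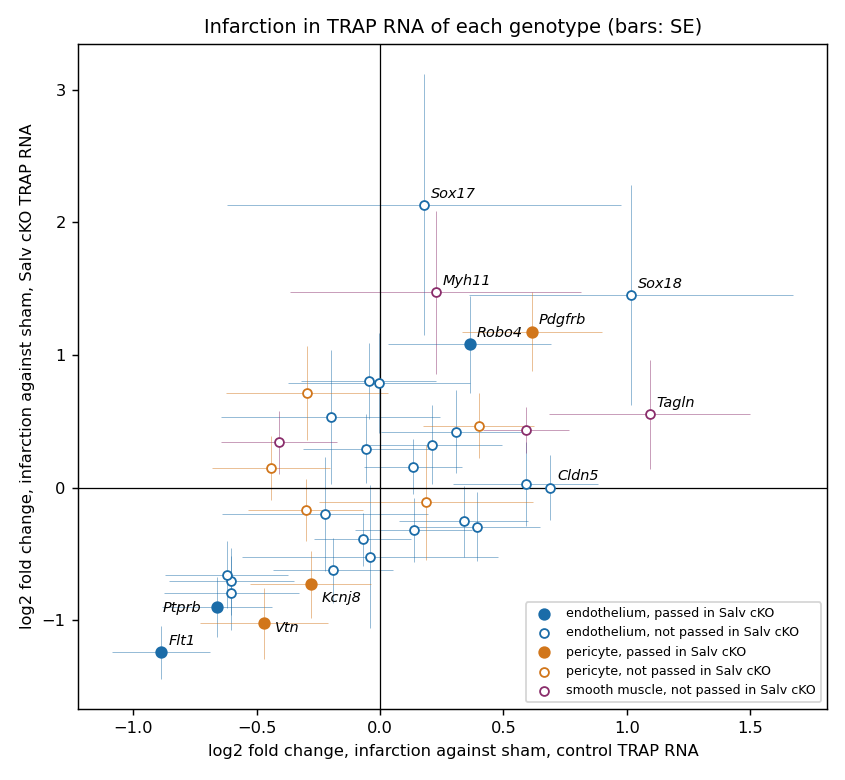
Log2 fold change of 36 genes between infarcted and sham hearts in TRAP RNA of control (x axis) and Salv cKO (y axis) mice, with standard errors as bars; filled points passed the edgeR test in Salv cKO. Flt1 lies lowest on both axes (-0.89 and -1.24), and Sox17, which rests on 0 to 17 counts per TRAP library, lies highest on the y axis (2.13) without passing.

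Smooth muscle genes did not pass in either genotype. Des was at 1673, 1820.4 and 1821 CPM after sham and 2718, 3081 and 2263 CPM after infarction in control, without overlap (log2 0.59, SE 0.17, edgeR adjusted p = 0.0903), and DESeq2 called it. Tagln had 1.09 in control (SE 0.41) and 0.55 in Salv cKO, and Myh11 0.23 and 1.47 (SE 0.62). Acta2 had -0.41 in control and 0.34 in Salv cKO.

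The interaction of genotype with surgery was tested for the 36 genes, and edgeR passed 0, as for all genes (0%). At an unadjusted p under 0.05 there were 3, Acta2 (log2 0.75, SE 0.33), Esam (0.85, SE 0.39) and Mcam (1.01, SE 0.48), against 1435 of all 11393 genes. DESeq2 called 0, against 18 higher and 64 lower among all genes. The values of the 6 genes called in Salv cKO were -0.35 for Flt1, -0.24 for Ptprb, 0.56 for Pdgfrb, 0.72 for Robo4, -0.55 for Vtn and -0.45 for Kcnj8, with edgeR adjusted p between 0.553 and 0.803. No difference in the infarction response of these genes between genotypes was thus detectable with 3 libraries a group.

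The ligands of these receptors were measured from a list of their own. Of 27 angiogenic ligand genes tested in TRAP against total RNA with TMM scaling, 13 fell (48.1%, against 39.9% of all genes) and 6 rose (22.2%, against 34.4%), so 70.4% passed against 74.2% of all genes. Vegfb rose from 99.2 ± 37.98 to 984 ± 90.9 CPM in control hearts (log2 2.95, SE 0.19 over both genotypes), and Pdgfa by 2.61 (SE 0.16). Jag2, a ligand of Notch receptors, fell by 2.53. Dll1, another such ligand, passed as lower, from 2.32 ± 0.720 to 0.353 ± 0.169 CPM in control hearts. No fold is given for Dll1 because its TRAP level is under the floor of 3 counts. Of 15 further angiogenic receptor genes 11 fell (73.3%, against 39.9% of all genes) and 2 rose (13.3%, against 34.4%), with Tgfbr2 (log2 -2.63) and Calcrl, the receptor that Ramp2 joins (-2.68), among those that fell. Between infarcted and sham Salv cKO hearts 4 of 25 ligand genes passed (16%, background 18.2%). Cxcl12, a chemokine, fell from 332 ± 113 to 78.5 ± 19.99 CPM (log2 -2.15, SE 0.46, edgeR adjusted p = 0.0105), and Pgf, a ligand of Flt1, from 11.6 ± 5.77 to 5.43 ± 0.874 CPM (log2 -1.16, SE 0.36). Vegfc rose by 2.15 (SE 0.69). Angpt2, a ligand of Tek, passed as higher, from 0.0962 ± 0.167 to 2.24 ± 0.0952 CPM, and no fold is given because its sham level is under the floor of 3 counts. Nrp1, a coreceptor of VEGF, fell by 0.80 (SE 0.19), the 1 of 12 receptor genes that passed. In control hearts 0 ligand and 0 receptor genes passed in edgeR, with 4 of 25 and 2 of 12 at an unadjusted p under 0.05 and 1 and 0 by DESeq2. Of all 11393 genes, 1604 had an unadjusted p under 0.05, and DESeq2 called 89 higher and 378 lower.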

How the data were processed

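The authors deposited raw counts per gene symbol for 18 libraries, in 1 table and in 18 single-library files whose values were identical to it. Per the labels' protocols, libraries were made with an Ion Total RNA-Seq kit, and per the series' design text they were sequenced in triplicate on a Proton instrument. The submitters' processing notes name STAR 2.5, mm10 and DESeq2. How counting was done (tool, annotation, strand) is not given in the sources used here.

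Members and lists were chosen with earlier results of these data known. Counts were tested with edgeR 4.0.16 in R 4.3.3 (TMM factors, filterByExpr, robust quasi-likelihood, two-sided), with Benjamini-Hochberg adjustment over all genes tested and a threshold of 0.05. TRAP comparisons shared 1 fit over 4 groups, and infarcted hearts 1 fit over both RNA fractions. Genotype in total RNA was fitted in its own 2 groups of 3. Alternatives were DESeq2 1.42.0, other scalings, no filter, equal depth, GC and length trends removed, a replicate block and leaving out libraries. The scripts were tested on simulated data. All 38 genes are named; of each other list, up to 4 genes per comparison that passed, largest change first, with a mean of at least 10 counts per library. The floor for a count of 0 is 3 counts, 0.124 to 0.926 CPM. Same-numbered libraries did not deviate together within TRAP or within total RNA, so numbers were not treated as pairs. Pairing of TRAP with total RNA was not examined. The lowest chi-square per degree of freedom between replicates was 9.06, so no library was a repeat. Promoters came from a RefSeq table of GRCm38.p6, which held 21 of the 38 genes.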

Additional observations from a re-analysis of the deposited data

How the results depend on the processing

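Of the 38 genes, 31 passed between TRAP and total RNA, and 30 to 32 when each library was left out in turn. With each genotype fitted alone, Acta2, Des, Cspg4 and Mmrn2 did not pass in Salv cKO hearts. Tie1 and Ramp2 did not pass in control hearts, and Kcnj8 passed in neither. For genotype in TRAP RNA after infarction the count was 0, and 1 with DESeq2, with no filter, with the 2 groups alone and without Salv cKO library 3 (0 to 1 over single libraries). In that order, all genes passing as higher and lower were 32 and 42 of 11393, 50 and 56 of 24863, 26 and 32 of 11123, and 17 and 10 of 12104. For genotype after sham the count among the 38 genes was 0, and 1 with DESeq2. For infarction in control it was 1, and 2 with DESeq2, with no filter and without the libraries with Y chromosome counts, 0 at equal depth and 0 without GC and length trends (0 to 1 over single libraries). All genes passing as higher and lower were 10 and 113 in the main fit, 89 and 378 with DESeq2, and 98 and 468 with no filter. They were 139 and 534 without the libraries with Y chromosome counts, 0 and 0 at equal depth, and 5 and 68 without GC and length trends. For infarction in Salv cKO the count among the 38 genes was 6, and 10 with no filter and 3 to 10 over single libraries: 3 without infarcted library 1 or 2 and 10 without infarcted library 3. All genes passing as higher and lower were 861 and 1208 of 11393 in the main fit and 1031 and 1110 of 24863 with no filter. Without infarcted library 1, 2 or 3 they were 427 and 673 of 11360, 560 and 837 of 11401, and 808 and 1111 of 12104. For genotype by fraction the count among the 38 genes was 0, and 1, Fabp4, with DESeq2, no filter, the replicate block and GC and length trends removed. In that order, all genes passing as higher and lower were 86 and 176, 109 and 193, 28 and 81, and 6 and 10. Between TRAP and total RNA, genes that turned sign under another scaling or correction were Ecscr (-0.74 without GC and length trends) and, with library totals, Ecscr (-0.16), Mmrn2 (-0.10), Fabp4 (-0.31) and Cspg4 (-0.0352); library totals move the median of all genes by -0.59, and the cause was not otherwise tested. Library totals and the removal of GC and length trends were chosen after seeing the data. With 3 libraries a group and low counts for genes such as Sox17, small differences were not detectable.

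Replicate numbers did not pair the samples within TRAP or within total RNA. The mean correlation of same-numbered residuals was -0.00312 in TRAP RNA and -0.0380 in total RNA. Pairing of a TRAP library with a total RNA library was not examined, and the fraction test treats all libraries as independent. With the replicate block, set within each RNA fraction, 24 of 38 genes passed for fraction. Of all 13267 genes 3689 then rose and 3764 fell, against 4558 and 5289 without the block. For infarction in Salv cKO 9 of 36 passed with the block, where 855 of all 11393 genes rose and 1251 fell.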

Other observations

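Markers of separate vascular beds were also compared between TRAP and total RNA of infarcted hearts, with TMM scaling. By edgeR 39.9% of all genes fell and 34.4% rose. The lists held only 3 to 7 tested genes each, and differences between lists were not tested. Of the lymphatic list, 5 of 6 genes fell (83.3%), among them Mmrn1 (log2 -2.90), Ccl21a (-1.85) and Prox1 (-0.76). Of the arterial list, 4 of 7 fell (57.1%), with Efnb2 at -2.38, and 1, Gja4, rose by 0.91. Of the venous list, 2 of the 3 genes tested fell, among them Vcam1 (-1.92), an adhesion molecule. Of the capillary list, 3 of 7 fell (42.9%, near the share of all genes), with Kit at -3.28, and 1, Gpihbp1, the lipoprotein lipase anchor of capillaries, rose by 0.52. Kit was at 0.456 ± 0.518 CPM in infarcted control TRAP RNA, near the floor of 3 counts, so the size of its fall is uncertain. Of the endocardial list, 1 of 4 fell (25%, below the share of all genes), which was Npr3 (-1.04).

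Between infarcted and sham Salv cKO hearts in TRAP RNA, Plvap, which encodes the diaphragm protein of fenestrated endothelium, rose from 3.76 ± 0.759 to 11.8 ± 3.89 CPM (SD, n = 3, log2 1.58, edgeR adjusted p = 0.00701). Lyve1, a receptor of lymphatic endothelium and of some macrophages, fell from 25.8 ± 8.82 to 10.7 ± 3.80 CPM (log2 -1.35, edgeR adjusted p = 0.0167). Leukocyte markers were lower in the same comparison in 10 of 10 genes, 1 of which passed; their part in the Lyve1 value was not tested. Pcp4l1, listed with smooth muscle, was the only gene of these lists that passed between genotypes by edgeR. It fell from 105 ± 1.81 to 48.6 ± 8.69 CPM after infarction (log2 -1.12, edgeR adjusted p = 0.00694) and from 86.4 ± 26.9 to 31.0 ± 2.32 CPM after sham (log2 -1.42, edgeR adjusted p = 7.42e-04).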
